A study of Mus musculus with 4 samples.

Results

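The genes described here are 36 genes of glycolysis and of the response to low oxygen, read on arrays from mouse lung tumors raised by urethane and from lung outside them, with and without Nrf2. They were chosen by name: a probe was a member if the RefSeq accession on the array belonged to a listed gene and its spot was well above background, by the scanner software's flag, on at least 1 array. All 36 genes met this rule and all 36 were well above background on all 4 arrays, out of 32300 genes or transcripts on the arrays. They had 59 probes, of which 57 passed. The dimmest probe inside the rule belonged to Slc16a1 and passed on 1 array only, with a signal of 24.8 there, and a probe of Hk1 just outside it reached 21.0. The members fell into 21 enzymes of glycolysis and pyruvate use, 4 transporters of glucose and lactate, 4 hypoxia-inducible factors and oxygen-sensing hydroxylases, and 7 targets of these factors outside glycolysis.

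Urethane, also called ethyl carbamate, causes lung adenomas in mice, and Nrf2, encoded by Nfe2l2, is a transcription factor of antioxidant and detoxification genes. Female ICR mice, 6 months old, had received 1 g/kg of urethane by intraperitoneal injection 4 months before (16 weeks in the series' design text). The 4 groups were tumor and non-tumor lung of each genotype, Nrf2+/+ and Nrf2-/-, all from treated animals, and the tumors were 1.0 to 1.5 mm across. Each group was a pool of RNA from 8 mice on 1 single-colour array, so there were no replicates, each difference describes a pair of pools, and the labels name no knockout allele. The Nrf2+/+ non-tumor array lay on 1 slide and the other 3 arrays on another, so the Nrf2+/+ tumor comparison and the genotype comparison in non-tumor lung crossed slides, and slide and group cannot be told apart there; the Nrf2-/- tumor comparison and the genotype comparison in tumor lay within 1 slide. Nfe2l2 had signals of 7913 and 7478 in Nrf2+/+ non-tumor lung and tumor, and was not well above background in either Nrf2-/- pool, with 5.13 and 6.94.

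Glycolysis turns glucose into pyruvate in the cytosol. Transporters bring glucose in, hexokinase traps it, phosphofructokinase commits it, and the later enzymes yield ATP and pyruvate, which lactate dehydrogenase reduces to lactate or pyruvate dehydrogenase sends into mitochondria. In low oxygen the prolyl hydroxylases of the Egln family stop marking the factors Hif1a and Epas1 for breakdown, and these factors then bind short hypoxia response elements near the glycolytic genes, Vegfa, Adm and others. In normal lung Epas1 and Vegfa are known as abundant transcripts of the endothelium and the alveolar epithelium.

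The elements that these factors bind hold the core letters ACGTG or GCGTG. Promoter windows of 300 bases, from 250 before to 50 after a gene's most upstream start in RefSeq (GRCm38.p6), were found for 33 of the 36 genes. Counted on both strands, where 1 CACGTG is a match on each, a core was in 26 of the 33 member windows and in 43.8% of the windows of 27025 genes. Such a match is a description of letters and not a binding site, and bound sites often lie outside this window. The windows of 7 genes are printed because the tumor results turn on them: 5 were at least 2-fold higher in tumors of both genotypes (Hk2, Gapdh, Ldha, Egln3 and Ankrd37), and Vegfa and Adm were lower. Capitals mark the core letters and their reverse complement. The windows are, in the order below, chr6:82774405-82774704 (minus strand), chr6:125165724-125166023 (minus), chr7:46845554-46845853 (plus), chr12:54203825-54204124 (minus), chr8:45999801-46000100 (minus), chr17:46032328-46032627 (minus) and chr7:110627407-110627706 (plus).
Hk2: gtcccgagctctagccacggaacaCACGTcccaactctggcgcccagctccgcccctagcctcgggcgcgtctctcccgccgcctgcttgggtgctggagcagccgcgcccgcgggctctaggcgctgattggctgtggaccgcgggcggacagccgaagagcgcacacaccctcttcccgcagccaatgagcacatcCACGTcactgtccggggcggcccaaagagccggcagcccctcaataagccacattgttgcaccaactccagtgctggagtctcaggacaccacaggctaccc
Gapdh: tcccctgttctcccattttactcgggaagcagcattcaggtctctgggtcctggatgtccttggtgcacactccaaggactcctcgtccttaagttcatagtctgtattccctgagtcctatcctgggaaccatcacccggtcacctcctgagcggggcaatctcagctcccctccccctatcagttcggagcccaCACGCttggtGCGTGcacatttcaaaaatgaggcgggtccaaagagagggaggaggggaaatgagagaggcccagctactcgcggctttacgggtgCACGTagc
Ldha: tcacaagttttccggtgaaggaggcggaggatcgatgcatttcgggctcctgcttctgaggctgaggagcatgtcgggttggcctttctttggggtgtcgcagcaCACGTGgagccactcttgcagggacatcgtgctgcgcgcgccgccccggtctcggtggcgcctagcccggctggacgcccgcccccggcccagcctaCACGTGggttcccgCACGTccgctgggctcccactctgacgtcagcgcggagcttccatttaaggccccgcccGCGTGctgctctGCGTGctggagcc
Egln3: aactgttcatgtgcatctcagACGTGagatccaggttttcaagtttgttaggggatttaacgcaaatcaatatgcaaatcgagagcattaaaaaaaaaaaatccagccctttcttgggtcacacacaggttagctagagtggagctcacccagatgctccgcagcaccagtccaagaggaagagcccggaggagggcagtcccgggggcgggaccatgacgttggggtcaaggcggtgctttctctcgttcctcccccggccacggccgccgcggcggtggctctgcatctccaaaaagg
Ankrd37: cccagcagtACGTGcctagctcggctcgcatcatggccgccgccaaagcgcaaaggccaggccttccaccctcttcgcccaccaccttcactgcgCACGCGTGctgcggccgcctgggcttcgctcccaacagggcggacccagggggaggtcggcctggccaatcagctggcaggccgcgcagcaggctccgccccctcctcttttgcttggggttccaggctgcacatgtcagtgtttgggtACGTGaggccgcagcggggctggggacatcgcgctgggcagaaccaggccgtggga
Vegfa: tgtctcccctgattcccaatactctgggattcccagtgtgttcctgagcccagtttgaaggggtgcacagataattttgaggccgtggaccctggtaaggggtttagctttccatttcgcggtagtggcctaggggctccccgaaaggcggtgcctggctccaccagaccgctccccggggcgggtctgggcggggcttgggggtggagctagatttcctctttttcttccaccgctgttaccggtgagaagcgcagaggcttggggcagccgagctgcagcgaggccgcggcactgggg
Adm: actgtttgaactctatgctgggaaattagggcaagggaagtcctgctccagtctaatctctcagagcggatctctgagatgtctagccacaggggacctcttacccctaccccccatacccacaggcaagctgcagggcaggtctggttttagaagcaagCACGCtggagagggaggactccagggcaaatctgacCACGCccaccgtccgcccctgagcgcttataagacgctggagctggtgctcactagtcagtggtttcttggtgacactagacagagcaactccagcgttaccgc
Ldha had 7 matches, Ankrd37 4, Gapdh 3, Hk2 2, Adm 2 and Egln3 1. The Vegfa window had 0.

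Signals are given below as intensity units with non-tumor lung first (Nrf2+/+, then Nrf2-/-) and tumor after it (Nrf2+/+, then Nrf2-/-). Differences are log2 values after each array was divided by the 75th percentile of its signals (760, 742, 555 and 584 units). Since the tumor arrays had the lower percentiles, equal signals become a tumor difference of 0.45 in Nrf2+/+ and 0.35 in Nrf2-/-. For bright spots the error that the scanner software assigns to such a difference was 0.20, which covers the measurement only.

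**Figure D1:**
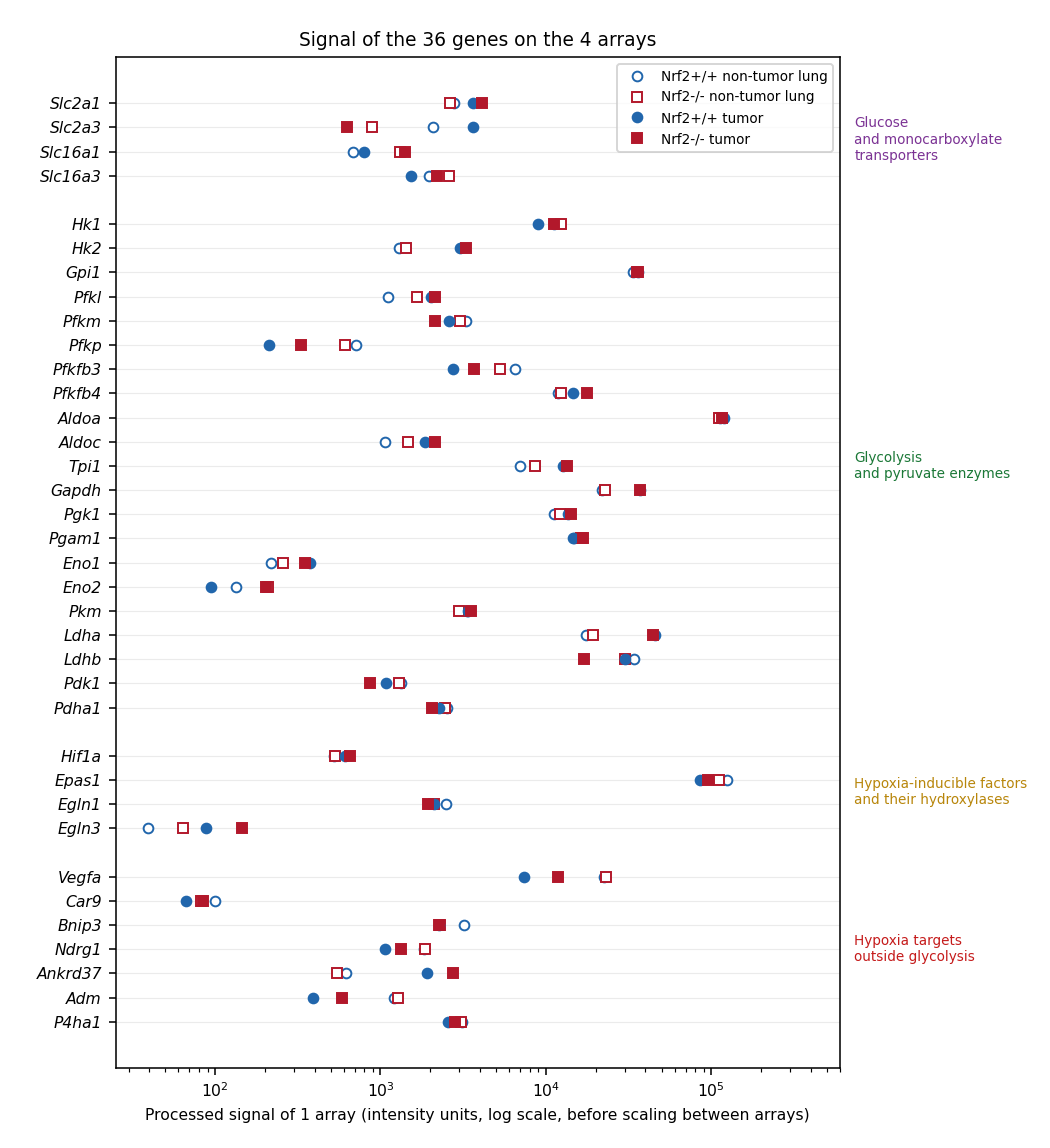
Processed signal of each of the 36 genes on the 4 arrays (horizontal axis, intensity units on a log scale, before scaling between arrays), with 1 point per array: open symbols for non-tumor lung, filled for tumor, blue circles for Nrf2+/+ and red squares for Nrf2-/-. Both filled symbols lie to the right of both open ones for Ldha, Hk2, Gapdh and Ankrd37 and to the left for Vegfa and Adm, and for Slc2a3 the colours separate; levels of different genes are not comparable, as probes differ.

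In Nrf2+/+ mice 13 of the 36 genes were at least 2-fold apart between tumor and non-tumor lung, where 23.4% of 19913 genes were. Of these 10 were higher in tumor, where 8.08% of genes were, and 3 lower, where 15.3% were. In Nrf2-/- mice 5 were past 2-fold, where 14.6% of 19426 genes were: 5 higher, where 5.43% were, and 0 lower, where 9.12% were. In both genotypes 5 genes were higher past 2-fold, where 3.46% of the 16287 genes on all 4 arrays were, and 0 lower, where 4.55% were. The median tumor difference of the 36 genes was 0.46 in Nrf2+/+ and 0.38 in Nrf2-/-, against -0.03 over all genes in each. These medians lay close to the 0.45 and 0.35 that scaling alone gives to equal signals. The enzymes had medians of 0.52 and 0.40, also near those values, and the 7 targets outside glycolysis -0.12 and 0.22. The difference between these classes was not tested, and the range of the targets in Nrf2-/-, from -0.76 to 2.67, covered that of the enzymes, from -0.52 to 1.56. In bulk tissue, more cells of a type and more RNA per cell cannot be told apart, which holds for every difference here.

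**Figure D2:**
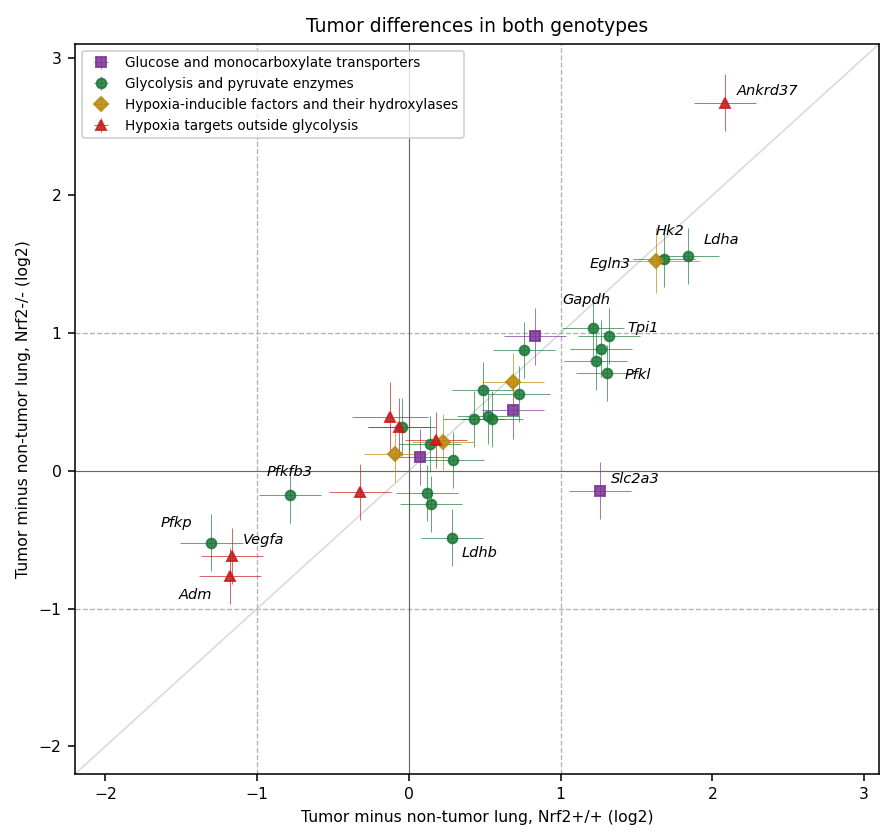
Tumor minus non-tumor lung (log2 after scaling on the 75th percentile) in Nrf2+/+ mice (horizontal) and Nrf2-/- mice (vertical), with 1 point per gene, the scanner software's error as bars, dashed lines at 2-fold and a grey line of equal differences. The pairs of arrays on the axes share no array; Ankrd37, Ldha, Hk2 and Egln3 lie past 2-fold on both axes, Vegfa, Adm and Pfkp lie below 0 on both, and Slc2a3 lies at 1.26 and -0.14.

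Transcripts of 2 glucose carriers were on the list. Slc2a1, which encodes the widespread glucose transporter GLUT1, had signals of 2792, 2641, 3624 and 4089. It was higher in tumor by 0.83 in Nrf2+/+ and 0.98 in Nrf2-/-, and above 0 under each of 8 settings. Slc2a3, which encodes the high-affinity transporter GLUT3, had signals of 2083, 887, 3638 and 632. Its tumor difference was 1.26 in Nrf2+/+ and -0.14 in Nrf2-/-, so that the Nrf2+/+ tumor was the highest pool and the Nrf2-/- tumor the lowest. After normexp background correction the Nrf2+/+ difference of Slc2a3 was 0.999, just under 2-fold.

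The hexokinases differed from each other. Hk2, the inducible hexokinase of muscle and many tumors, had signals of 1299, 1430, 3039 and 3275, so both tumor pools lay above both non-tumor pools. The difference was 1.68 in Nrf2+/+ and 1.54 in Nrf2-/-. Hk1, the broadly expressed form, had 11195, 12348, 8990 and 11129, with differences of 0.14 and 0.20 whose sign turned in both genotypes with quantile normalization and spike-in scaling, and in Nrf2+/+ with the mean of its probes. Of the 6 probes of Hk1, 4 passed the rule, and the 3 of them not used here lay between -0.16 and 0.20 in both genotypes. The log2 ratio of Hk2 to Hk1 was higher in tumor by 1.54 in Nrf2+/+ and 1.35 in Nrf2-/-, and no linear scaling of an array changes such a ratio.

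Among the subunits of phosphofructokinase, which catalyses the committed step, the liver-type Pfkl had signals of 1115, 1661, 2017 and 2135. It was higher in tumor by 1.31 in Nrf2+/+ and 0.71 in Nrf2-/-. The platelet-type Pfkp had 714, 606, 211 and 333 and was lower in tumor, with differences of -1.30 and -0.52. Before scaling, the tumor pools thus lay above the non-tumor pools for Pfkl and below them for Pfkp. The muscle-type Pfkm had 3266, 3014, 2589 and 2123, with differences of 0.12 and -0.16. The bifunctional enzymes that make and remove the activator of phosphofructokinase were split in a like way: Pfkfb4 had differences of 0.76 and 0.87, and Pfkfb3 -0.78 and -0.18. All 3 probes of Pfkfb3 were below 0 in both genotypes.

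Of the middle enzymes, Gpi1, glucose phosphate isomerase, had signals of 33645, 35364, 35882 and 36189. Aldoa, the main aldolase, had 113667, 111464, 119197 and 115501. These signals were nearly level, and the differences of 0.55 and 0.38 for Gpi1 and 0.52 and 0.40 for Aldoa came close to what scaling alone gives to equal signals. Aldoc, the brain-type aldolase, had 1058, 1460, 1856 and 2127, with differences of 1.26 and 0.89. Tpi1, triose phosphate isomerase, had 6949, 8593, 12691 and 13345 and was higher in tumor by 1.32 and 0.98. For Aldoc and Tpi1 both tumor pools exceeded both non-tumor pools before scaling.

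Gapdh, which oxidises glyceraldehyde phosphate and is often used as a reference transcript, had signals of 21943, 22904, 37224 and 37091. It was higher in tumor by 1.22 in Nrf2+/+ and 1.04 in Nrf2-/-, and by 1.43 and 1.08 on its other probe. With quantile normalization or spike-in scaling it was no longer past 2-fold in both genotypes. The list of 10 other reference genes had medians of 0.22 and 0.29, with 0 of 10 past 2-fold in either genotype. Pgk1, phosphoglycerate kinase, was higher by 0.72 and 0.56. Pgam1, phosphoglycerate mutase, had signals of 14791, 16386, 14544 and 16716. Its differences of 0.43 and 0.37 came close to what scaling alone gives to equal signals. Pkm, pyruvate kinase, had 3316, 2992, 3405 and 3544, nearly level in Nrf2+/+, with differences of 0.49 and 0.59. Eno1, the common enolase, was read by 1 dim probe, with signals of 219, 256, 376 and 350 and differences of 1.23 and 0.80. Eno2, the neuronal enolase, had 133, 208, 94.1 and 204, with differences of -0.05 and 0.32. Genes such as Gapdh, Ldha and Eno1 have many processed pseudogenes, whose transcripts such probes may also bind.

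At the end of the pathway, Ldha, the lactate dehydrogenase subunit that favours lactate, was higher in tumor in both genotypes. Its signals were 17516, 19155, 45773 and 44537, and the differences 1.84 and 1.56. Both tumor pools lay at more than 2-fold the signal of either non-tumor pool. Its other probe read 1.43 and 1.09. Ldhb, the subunit of oxidative tissues, had 33861, 30111, 30140 and 16946, with differences of 0.28 and -0.48, so that the Nrf2-/- tumor stood apart from the other 3 pools. The ratio of Ldha to Ldhb was higher in tumor by 1.55 in Nrf2+/+ and 2.05 in Nrf2-/-.

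The genes of the next steps moved less. Pdk1, the kinase that switches off pyruvate dehydrogenase, had differences of 0.14 and -0.24. Pdha1, a subunit of that complex, had 0.29 and 0.08. The lactate carriers Slc16a1 and Slc16a3, which encode MCT1 and MCT4, had 0.68 and 0.44, and 0.08 and 0.10. The dimmest probe of Slc16a1 read -0.997 in Nrf2+/+, and the mean of its probes 0.11. In all, 8 of the 21 enzymes were past 2-fold in Nrf2+/+ tumor, where 23.4% of all genes were, with 7 higher and 1 lower (Pfkp), and 3 (Hk2, Gapdh and Ldha) were higher and 0 lower in Nrf2-/- tumor, where 14.6% were past it either way. The Nrf2-/- count lies near that either-way share, but all 3 were higher, where 5.43% of genes were. Both shares also cover genes above background on only 1 of the 2 arrays. Of the 16287 genes on all 4 arrays, as all members were, 742 were past 2-fold higher and 841 lower in Nrf2-/- tumor. The enzyme medians stayed above 0 under all 8 settings, between 0.21 and 0.81 in Nrf2+/+ and between 0.13 and 0.53 in Nrf2-/-. At the main setting they were 0.52 and 0.40, close to the 0.45 and 0.35 that scaling gives to equal signals. The median enzyme thus had nearly level signals before scaling.

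**Figure D3:**
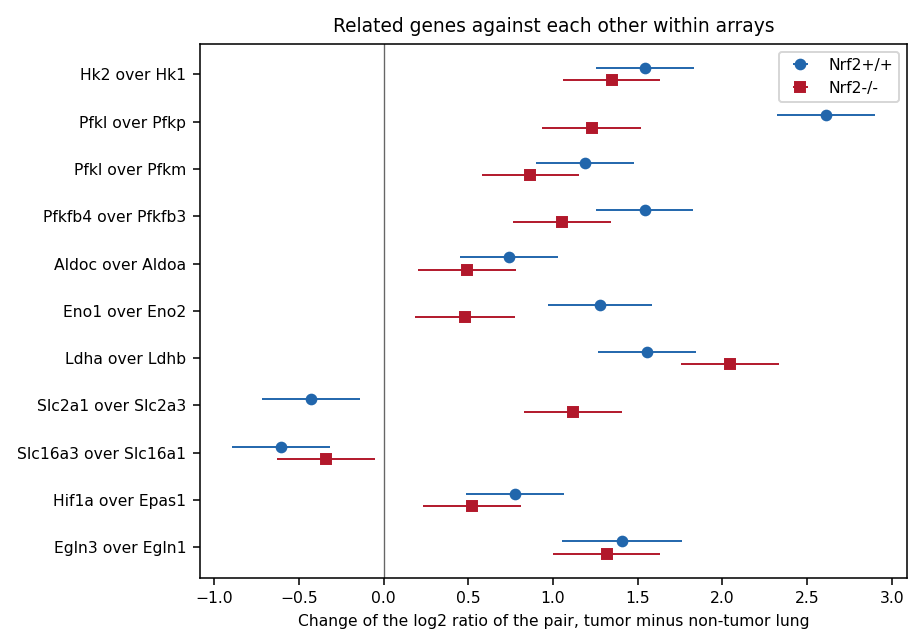
Change in tumor of the log2 ratio between related genes on the same array (horizontal axis, log2), for 11 pairs, with blue circles for Nrf2+/+, red squares for Nrf2-/- and the scanner software's error as bars. Hk2 over Hk1, Pfkl over Pfkp, Pfkfb4 over Pfkfb3, Ldha over Ldhb and Egln3 over Egln1 lie above 1 in both genotypes. Slc2a1 over Slc2a3 lies at -0.43 and 1.12.

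The oxygen-sensing genes came next. Hif1a, which encodes the factor found in most cells, had signals of 523, 531, 614 and 655 and was higher in tumor by 0.69 and 0.65. Epas1, which encodes the related factor HIF-2 alpha, had 125235, 111739, 85856 and 95948, with differences of -0.09 and 0.13. Its other, dimmer probe read -1.48 and -0.97, so the 2 probes of Epas1 disagreed by more than 1, and no direction is given for this gene. Egln1, the main prolyl hydroxylase, had differences of 0.22 and 0.21. Egln3, a hydroxylase that is itself induced by low oxygen, had low signals of 39.2, 64.2, 88.7 and 146. It was higher in tumor by 1.63 in Nrf2+/+ and 1.53 in Nrf2-/-, and the differences were 0.94 and 1.08 after another background correction.

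The targets outside glycolysis spread further than any other class. Ankrd37, an ankyrin repeat gene known as a direct target of HIF-1, had the largest tumor difference of the 36 genes. Its signals were 616, 546, 1905 and 2745 and its differences 2.08 and 2.67, and it was past 2-fold under all 8 settings in both genotypes. Vegfa, the main growth factor of blood vessels, went the other way, with 22576, 23039, 7342 and 11807. It was lower in tumor, with differences of -1.17 in Nrf2+/+ and -0.62 in Nrf2-/-. All 4 of its probes were below 0 in both genotypes, down to -1.62 and -0.97. Adm, which encodes the vasodilator peptide adrenomedullin, had 1213, 1270, 391 and 589 and differences of -1.18 and -0.76. Both genes thus had lower signals in both tumor pools than in both non-tumor pools, and stayed below 0 under all 8 settings.

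The other 4 targets were near 0. Ndrg1, a gene of differentiation and stress, had differences of -0.32 and -0.16. Bnip3, a gene of mitophagy, had -0.06 and 0.32, and Car9, the surface carbonic anhydrase used as a marker of hypoxic tumors, had -0.12 and 0.39. Car9 had low signals of 99.9, 81.9, 66.9 and 84.5, and its tumor and non-tumor pools overlapped before scaling. P4ha1, a subunit of the collagen prolyl hydroxylase, had 0.18 and 0.22. The target class median turned from -0.12 to 0.17 in Nrf2+/+ with median scaling, and from 0.22 to -0.042 in Nrf2-/- with spike-in scaling, so no direction is given for the class. Ldha and Vegfa parted by 3.01 in Nrf2+/+ and 2.18 in Nrf2-/-, as the change of their log2 ratio, and Ankrd37 and Adm by 3.26 and 3.44.

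Levels of many cell type markers also differed between tumor and non-tumor lung. The 10 endothelial markers had medians of -1.32 and -0.92, all 10 below 0 in both genotypes, with summed levels of 374, 389, 160 and 210 multiples of the 75th percentile. The 8 measured alveolar type 1 markers had medians of -1.20 and -0.60 and sums of 353, 320, 199 and 238. Aqp5 of the type 1 list was higher, at 0.70 and 0.64. Other lists were lower too: the 7 measured ciliated cell markers had medians of -2.24 and -2.84, the 6 mesothelial markers -1.60 and -1.52, the 7 smooth muscle markers -1.16 and -1.49, the 4 measured erythroid markers -0.71 and -1.06, and the 5 measured club cell markers -0.53 and -1.09. The medians of the lists named so far had the sign of the Vegfa and Adm differences. So had those of the fibroblast list (-0.31 and -0.41) and the lymphocyte list (-0.82 and -0.27). The macrophage medians were -0.29 and 0.23 and the neutrophil medians -0.80 and 0.22, of the other sign in Nrf2-/-. The 9 measured alveolar type 2 markers were above 0 in both genotypes, with medians of 1.11 and 0.89 and sums of 623, 710, 1065 and 1118. The cell cycle list of 10 had 8 past 2-fold in Nrf2+/+ tumor, all higher, where 8.08% of all genes were higher. It had 0 in Nrf2-/- tumor, where 14.6% were past it either way, and its sums were 4.25, 5.19, 9.91 and 6.36. A marker counted as measured only if it was well above background on at least 1 array. Cd4 of the lymphocyte list was not and was left out, and the other unmeasured markers of these lists had no probe named. The part of the markers in the differences of the glycolysis and hypoxia genes was not tested.

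Receptors for the ligands Vegfa and Adm, and related growth factors, were mostly lower in tumor. Of 12 such genes 5 were at least 2-fold lower in Nrf2+/+ (Vegfc, Vegfd, Flt1, Kdr and Flt4), where 15.3% of all genes were. In Nrf2-/- 2 were lower (Vegfd and Kdr), where 9.12% were. In either genotype 0 were higher, where 8.08% and 5.43% were. Kdr, the main signalling receptor of Vegfa, had signals of 13440, 11688, 3653 and 4285 and differences of -1.43 and -1.10. Vegfc and Vegfd, growth factors of lymphatic vessels, had -1.61 and -0.88, and -1.45 and -1.06, and their receptor Flt4 -1.16 and -0.68. The Adm receptor subunits Calcrl and Ramp2 had -0.92 and -0.65, and -0.87 and -0.44. The class median was -0.93 in Nrf2+/+ and -0.66 in Nrf2-/-.

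Other genes of the pathway were taken from lists. Of 28 further genes of glycolysis, pyruvate use and gluconeogenesis, 13 were past 2-fold in Nrf2+/+ tumor, 6 of them higher (background 8.08%) and 7 lower (15.3%). In Nrf2-/- tumor 6 were higher (background 5.43%) and 3 lower (9.12%), and the medians were 0.34 in Nrf2+/+ and 0.18 in Nrf2-/-. Among those on all 4 arrays, the highest tumor differences in both genotypes were those of the fructose bisphosphatases, which oppose phosphofructokinase. Fbp1 had signals of 1619, 1898, 14289 and 8046 and differences of 3.59 and 2.43. Fbp2 had 655, 386, 5681 and 2345 and differences of 3.57 and 2.95. In Nrf2+/+ both values exceeded that of every one of the 36 members, and in Nrf2-/- Fbp2 did while Fbp1 lay below Ankrd37. The muscle isoform Pgam2 was lower, with differences of -2.83 and -1.96, as was Slc2a4, the insulin-responsive transporter of muscle and fat, with -2.46 and -2.18. The 12 striated muscle markers had medians of -2.75 and -2.59 and sums of 53.3, 64.0, 16.3 and 17.7, moving the same way as Pgam2 and Slc2a4, and their part was not tested.

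Of 29 further genes of the hypoxia-inducible factors and their targets, 9 were past 2-fold in Nrf2+/+ tumor, where 23.4% of all genes were, with 6 higher (background 8.08%) and 3 lower (15.3%; Plod2, Angptl4 and Tmem45a). In Nrf2-/- tumor Bhlhe40, Hmox1 and Pgm1 were among those past 2-fold higher, and 1 was lower (Plod2), where 9.12% of all genes were. The medians were 0.28 in Nrf2+/+ and 0.05 in Nrf2-/-. Pgm1, phosphoglucomutase, was higher in tumor 2.97-fold and 2.03-fold. Bhlhe40, a transcriptional repressor, had differences of 1.28 and 1.39. Hmox1, heme oxygenase, which is also a target of Nrf2, had 1.41 and 1.50. Plod2, a collagen lysyl hydroxylase, had -1.82 and -1.22. Angptl4, Tmem45a, Flt1, Calcrl and Ramp2 were named after their values were seen. This wider list, like the 7 targets, held genes on both sides of 0.

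Genotype differences were then read in each tissue, a pair of comparisons that share no array. In non-tumor lung 1 of 36 genes was past 2-fold, where 7.65% of 20190 genes were: 0 were higher in Nrf2-/-, where 3.04% were, and 1 was lower (Slc2a3), where 4.61% were. In tumor 2 were past 2-fold, where 7.96% of 17824 genes were: 1 was higher (Eno2), where 4.29% were, and 1 lower (Slc2a3), where 3.67% were. Eno2 was no longer past 2-fold with spike-in scaling (0.95) or normexp (0.65). These shares are near or below the background. The medians of the 21 enzymes were 0.11 in non-tumor lung and -0.01 in tumor, and those of the 7 targets 0.02 and 0.26.

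**Figure D4:**
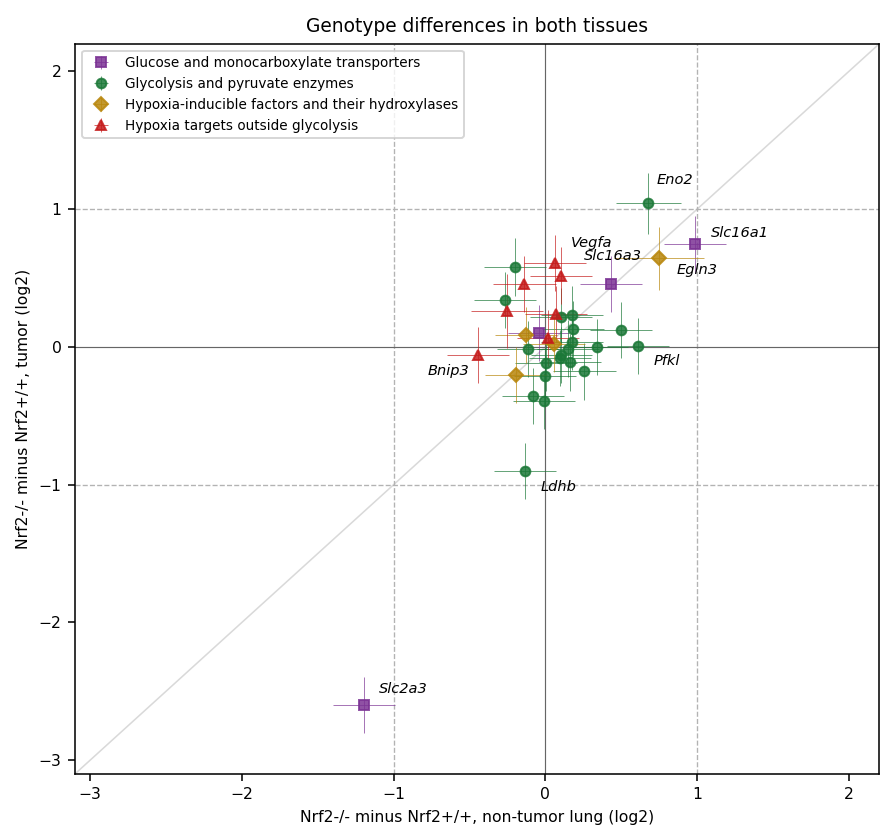
Nrf2-/- minus Nrf2+/+ (log2 after scaling on the 75th percentile) in non-tumor lung (horizontal) and in tumor (vertical), with 1 point per gene, the scanner software's error as bars and dashed lines at 2-fold. Most genes lie within 2-fold on both axes; Slc2a3 lies at -1.20 and -2.60, and Eno2 and Slc16a1 lie above 0.5 on both.

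Slc2a3 was lower in Nrf2-/-, 2.29-fold in non-tumor lung (a difference of -1.20) and 6.06-fold in tumor (-2.60). It was read by 1 probe, and both values were past 2-fold under all 8 settings. The summed level of the 7 neutrophil markers, cells in which GLUT3 is known to be present, was 53.9 in Nrf2+/+ and 45.3 in Nrf2-/- non-tumor lung, and 31.1 and 32.3 in the tumors. Their median genotype difference was -0.52 in non-tumor lung, with 6 of 7 below 0, and 0.16 in tumor, with 6 of 7 above 0. Most of each sum was S100a9 (27.8 of 31.1 in Nrf2+/+ tumor). The part of these cells in the Slc2a3 difference was not tested. Slc16a1 was higher in Nrf2-/- by 0.99 and 0.74, and by 0.49 and 0.31 on another of its probes. Its dimmest probe, above background on 1 array, read -0.39 in non-tumor lung, and the mean of its probes 0.36 there. Eno2 was higher by 0.68 and 1.04 (0.86 and 1.09 on its other probe), and Egln3 by 0.75 and 0.64. For these 3 genes the Nrf2-/- pool was the higher one in each tissue. The tissues differed for Ldhb, which was at -0.13 in non-tumor lung and -0.90 in tumor. Pfkl was at 0.61 and 0.01, and Vegfa at 0.06 and 0.61, the latter within a slide.

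The tumor differences of the genotypes were at least 2-fold apart for 1 of the 36 genes (Slc2a3), where this held for 4.32% of 16287 genes on all 4 arrays. The next were Pfkp, with -1.30 in Nrf2+/+ and -0.52 in Nrf2-/-, Ldhb, with 0.28 and -0.48, and Pfkfb3, with -0.78 and -0.18. Of the 21 enzymes, 15 were above 0 in both genotypes, 2 (Pfkp and Pfkfb3) below 0 in both and 4 on different sides. Without replicates these differences between genotypes have no test.

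The single test that 4 arrays allow is an additive fit of tissue and genotype, which takes the unlikeness of the genotypes as its error and leaves 1 residual degree of freedom. In limma's moderated test with Benjamini-Hochberg adjustment, 0 of 20553 genes passed an adjusted p of 0.05 for tissue (0%), with 6095 at an unadjusted p below it (29.7%). Among the members 0 passed and 18 of 36 were below 0.05 unadjusted. The smallest limma adjusted p of any gene was 0.0707. Ankrd37 (2.38 ± 0.23, fitted difference and SE over 4 arrays), Ldha (1.70 ± 0.17), Hk2 (1.61 ± 0.16) and Egln3 had this value. The adjustment gave it to genes of unlike unadjusted p, so it is a tied value. It does not rank these genes first among the 20553. Gapdh had an adjusted p of 0.0760, Adm 0.0945 and Vegfa 0.119 by the same limma fit. For genotype 0 genes passed in limma, with 1910 below 0.05 unadjusted (9.29%), 4 of them members: Slc2a3, Slc16a1, Eno2 and Egln3.

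This outcome depended on the scaling, the background correction and the genes that entered. Over the same 20553 genes, 2155 passed for tissue with median scaling, 2464 with spike-in scaling and 3123 with normexp, and 10, 5 and 15 members did. Over the 16287 genes on all 4 arrays, 3852 passed for tissue (23.7%), and 16 of the 36 members did. Of these, 13 were higher in tumor (Slc2a1, Hk2, Pfkl, Pfkfb4, Aldoc, Tpi1, Gapdh, Pgk1, Eno1, Ldha, Hif1a, Egln3 and Ankrd37) and 3 lower (Pfkp, Vegfa and Adm). For genotype 150 genes passed (0.921%) and 0 members.

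**Figure D5:**
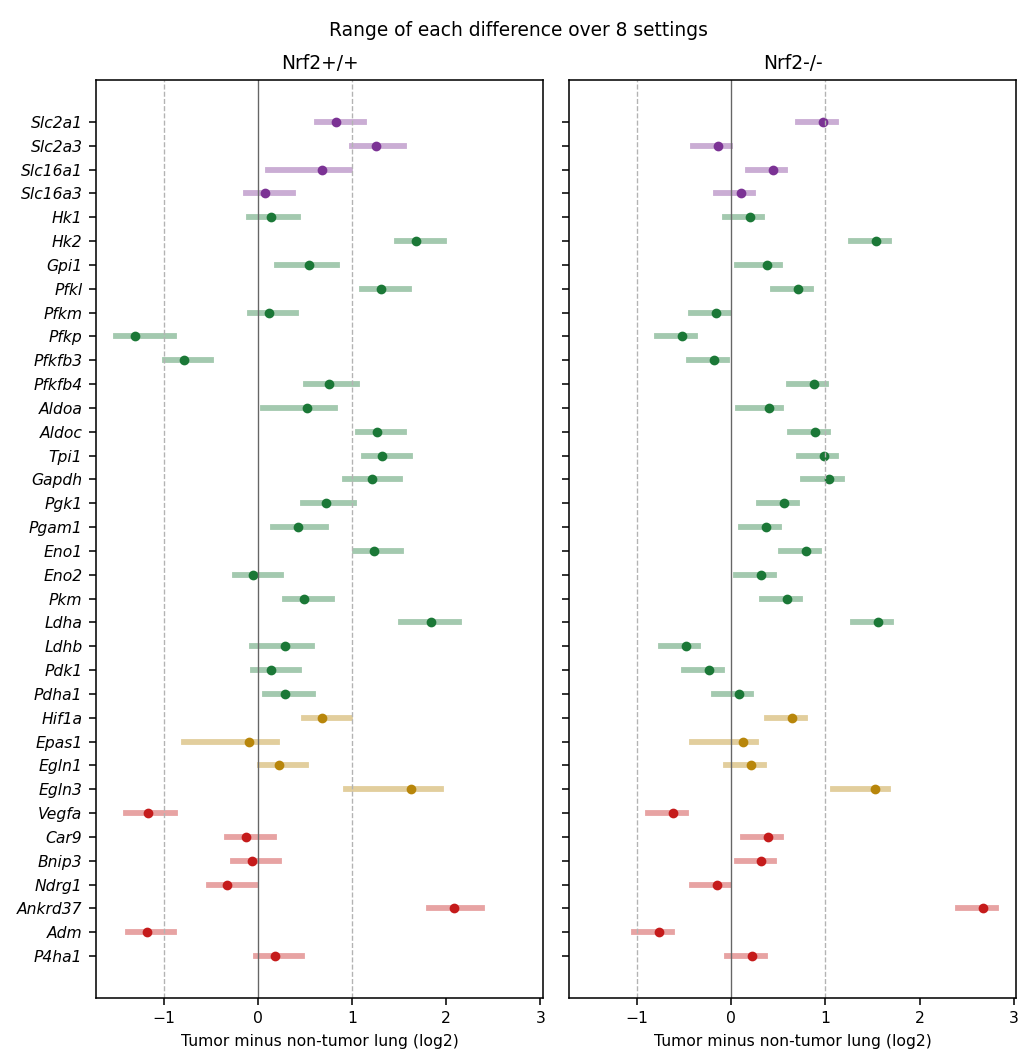
Tumor minus non-tumor lung (horizontal axes, log2) of each gene in Nrf2+/+ (left) and Nrf2-/- mice (right), with the point at the value reported and the bar from the lowest to the highest value over 8 settings of scaling, background correction, probe choice, filter and value source; dashed lines mark 2-fold and colours the 4 classes. Bars of Ankrd37, Ldha and Hk2 stay above 1 in both panels, and those of Vegfa, Adm and Pfkp stay below 0.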

How the data were processed

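RNA pooled from 8 mice per group (500 ng labelled with Cy3) was hybridised to 4 Agilent arrays of design 014868, per the labels' protocols and the file headers, and read with Feature Extraction 10.7.3.1. Per the file headers, the deposited signal is a linear intensity for each spot, from which the authors' scanner software had subtracted background and spatial trend. Whether arrays were normalized to each other is not given in the sources used here, and the submitters' value table equalled the processed signal within rounding.

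Each array's log2 signal was centred on its 75th percentile over non-control spots. Of 41174 probes, 4 with outlier-flagged spots were left out. Names came from RefSeq (GRCm38.p6) by accession: 26691 probes had a symbol and 14479 none. A gene was represented by its brightest probe on average. The arrays' number limits precision. Differences were counted at 2-fold, over genes that passed the background flag on either array compared, and for list genes on any of the 4. The additive fit used limma 3.58.1 in R 4.3.3 and was tested on simulated data. Python 3.11.15, numpy 2.4.6, pandas 2.3.3 and matplotlib 3.10.9 did the rest.

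Every member was named, with the 4 largest tumor differences of each further pathway list, over genes on all 4 arrays. A gene of a further list is not reported here. Members and lists were chosen with earlier results of these data known. Normexp (offset 50) used the median spot signal. Slide could not be fitted as a block, since it leaves no residual degree of freedom.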

Additional observations from a re-analysis of the deposited data

Results flagged for a closer look

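Slc2a3 was higher in Nrf2+/+ tumor than in Nrf2+/+ non-tumor lung by 1.26 and at -0.14 in Nrf2-/-, so its tumor differences had opposite signs and lay -1.40 apart (Nrf2-/- minus Nrf2+/+). The signals were 2083, 887, 3638 and 632 in the order used above. This difference between the genotypes was not tested, since each group was 1 pool, and the Nrf2+/+ tumor comparison crossed slides while the Nrf2-/- one did not.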

How the results depend on the processing

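All listed alternatives were run, and the slide could not be fitted as a block. Of the 8 class medians, 8 class counts and 2 fit counts, 24 of 134 alternative values moved past their margin. The enzyme median in Nrf2+/+ tumor became 0.81 with median scaling and 0.21 with quantile normalization, and in Nrf2-/- tumor 0.13 with spike-in scaling. The target median became 0.17 in Nrf2+/+ with median scaling and -0.042 in Nrf2-/- with spike-in scaling. Enzymes past 2-fold in Nrf2-/- tumor numbered 6 with median scaling and 9 at a 1.5-fold mark. Targets past it numbered 1 in Nrf2+/+ with median scaling, and in Nrf2-/- 2 with spike-in scaling and 3 at 1.5-fold. Between genotypes, enzymes numbered 2 at 1.5-fold in non-tumor lung. In tumor they numbered 0 with spike-in scaling or normexp, 2 with the mean of probes and 2 at 1.5-fold, and targets 1 at 1.5-fold. Genes passing the limma tissue term numbered 2155 with median scaling, 2464 with spike-in scaling, 3123 with normexp and 3852 over genes on all 4 arrays, and members 10, 5, 15 and 16. The causes were not tested, and the last setting also had fewer genes entering. Median and spike-in scaling moved all genes by 0.29 and -0.20 in Nrf2+/+ and by 0.14 and -0.27 in Nrf2-/- tumor comparisons. The share of higher genes past 2-fold was 34.5% in Nrf2+/+ tumor, 55.1% with median scaling, 23.7% with spike-in scaling and 48.8% with normexp. In Nrf2-/- tumor it was 37.3%, 48.1%, 22.0% and 58.0%. No called member changed sign: 26 of 36 kept 1 sign in Nrf2+/+ tumor and 30 in Nrf2-/- tumor over the 8 settings. Slc2a1, Pfkfb4, Aldoc and Tpi1 joined the 5 genes past 2-fold in both genotypes with median scaling. No paired analysis was possible because each group had 1 array. Signal over background limits Egln3, Car9 and Eno2.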

Other observations

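Further pathway genes outside the 36 had differences past 2-fold. Plin2, which coats lipid droplets and is a known hypoxia target, was higher in Nrf2-/- by 1.05 in non-tumor lung and 1.03 in tumor, with signals of 16318, 33081, 19045 and 40842. Angptl4, an inhibitor of lipoprotein lipase, had 19049, 25733, 5329 and 15458 and was higher in Nrf2-/- tumor by 1.46. Pdk4, a kinase of pyruvate dehydrogenase known in fasting, had 1226, 810, 196 and 475, with tumor differences of -2.19 in Nrf2+/+ and -0.42 in Nrf2-/-. Hkdc1, a hexokinase-like gene, had 1775, 2930, 5924 and 6900 and was higher in tumor by 2.19 and 1.58. The 5 measured adipocyte markers had medians of -1.78 in Nrf2+/+ tumor and -0.43 in Nrf2-/- tumor against non-tumor lung. Between genotypes the medians were -0.48 in non-tumor lung and 0.82 in tumor, with 5 of 5 above 0 in the latter. Fabp4 of this list was higher in tumor, at 1.20 and 1.27, and the list's sums were 12.4, 12.7, 13.6 and 22.0. In Nrf2+/+ tumor Cfd and Adipoq had signals of only 5.08 and 4.73. The part of the adipocyte markers in the differences of the genes above was not tested. Plin2, Angptl4, Pdk4 and Hkdc1 were picked after their values were seen and carry no test.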
